A study of Mus musculus with 7 samples.

Results

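Gata2 and 9 genes that mark endothelial cells were followed in RNA sequencing of whole hearts, 10 genes of the 14641 in the count table. The set was drawn up to show whether the lower Gata2 level of mNrf2-TG hearts moved together with the markers of the endothelium. It was chosen by symbol with earlier results of this comparison known, and all 10 were found in the table and passed the filter on low counts. The levels of these 10 genes in both genotypes are therefore given as a description and carry no test of their own.

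Endothelial cells line the vessels and chambers of the heart and hold one another through junction proteins, of which PECAM1 (CD31) and VE-cadherin, the product of Cdh5, are the classical markers. They read growth signals through the VEGF receptors encoded by Kdr (VEGFR2) and Flt1 (VEGFR1) and through the angiopoietin receptor encoded by Tek (TIE2) with its partner Tie1. Endoglin, from Eng, is a co-receptor for ligands of the TGF-β and BMP family, Vwf encodes the clotting factor that endothelial cells store and secrete, and Emcn encodes endomucin, a surface mucin of capillary and venous endothelium. GATA2 is a zinc-finger transcription factor that binds GATA motifs in blood stem and progenitor cells, mast cells and endothelium.

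The hearts came from 4 non-transgenic (NTG) mice, libraries 1 to 4, and from 3 mNrf2-TG mice, libraries 17 to 19, all male and C57BL/6J. The transgene is full-length mouse Nrf2 (Nfe2l2) under the αMHC promoter, which drives expression in cardiomyocytes, and so in other cells than those that the markers name. An age of 6 months is labelled for the mNrf2-TG libraries and none for NTG, while the design text of the series gives 7 to 8 months. Cardiomyocyte transcripts dominated both groups: the 10 listed cardiomyocyte genes summed to 781802–837292 normalized counts in the hearts of NTG mice and 670487–702889 in those of mNrf2-TG mice, against 9753–10461 and 8267–9083 for the 9 endothelial markers. Normalized counts are read counts scaled by the trimmed mean of M-values (TMM) to a common library size.

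Between 6534684 and 8405857 reads per library fell on the listed genes. Nfe2l2, whose reads include those of the transgene, had 729–1392 of them per NTG library and 10912–12839 per mNrf2-TG library, with a log2 fold change (Log2FC, mNrf2-TG over NTG) of 3.36 and an adjusted p of 2.96e-06 in edgeR's quasi-likelihood test. Of the 14637 genes tested, 17.2% passed an adjusted p of 0.05, 8.48% higher and 8.73% lower in mNrf2-TG hearts. NTG library 3 stood apart from its group: over the 9666 genes with a mean of at least 50 normalized counts, its root mean square log2 difference from the other NTG libraries was 0.394 to 0.415, against 0.205 to 0.289 among those and 0.273 to 0.324 among the mNrf2-TG libraries. Without it the Log2FC of Gata2 was -0.99, that of the 9 markers had a median of -0.39, and 4 of the 10 genes were called lower and 1 higher, as with all libraries.

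The stretches just upstream of the start sites of Gata2, Kdr and Flt1 are shown because these genes had the lowest and the highest Log2FC of the 10 and the lowest of the VEGF receptors. They are given 5′ to 3′ on the gene's own strand from RefSeq (GRCm38.p6), at chr6:88193771-88193890 on the plus strand, chr5:75978459-75978578 on the minus strand and chr5:147726012-147726131 on the minus strand. Capitals mark a match to TGACNNNGC, the core letters of the antioxidant response element that NRF2 binds.
Gata2: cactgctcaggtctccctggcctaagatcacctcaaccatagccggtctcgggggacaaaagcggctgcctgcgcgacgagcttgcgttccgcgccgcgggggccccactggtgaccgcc
Kdr: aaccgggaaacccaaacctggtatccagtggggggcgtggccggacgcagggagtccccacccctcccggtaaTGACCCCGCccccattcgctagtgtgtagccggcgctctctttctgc
Flt1: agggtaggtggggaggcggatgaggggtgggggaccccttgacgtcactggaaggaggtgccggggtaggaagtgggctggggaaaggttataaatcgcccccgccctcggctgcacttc

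Promoter windows of 250 bases before to 50 bases after the start were found for 7 of the 10 genes, 8 windows in all because Gata2 has 2 start sites. Both strands were searched for the GATA letters AGATAA and TGATAA, the ETS core GGAAG and TGACNNNGC, which do not overlap one another in these windows. Neither Gata2 window held any of the 4. The match in Kdr began 50 bases before the start, and 12.4% of all 32851 windows hold these letters on either strand. AGATAA, held by 11.2% of all windows, occurred in Tek 36 bases after the start, and TGATAA, held by 9.05%, occurred in Emcn 10 bases after it. GGAAG occurred in the windows of Flt1, Tie1, Eng, Emcn and Kdr, as it did in 71.4% of all windows. These matches describe letters in a window, and binding was not measured.

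Gata2 was the lowest of the 10 relative to NTG. Its 4 NTG libraries held 180.4, 161, 174 and 159 normalized counts, and the mNrf2-TG libraries 76.4, 83.7 and 91.7. All mNrf2-TG hearts lay below all NTG hearts, with a gap between 91.7 and 159. The mean was 169 ± 10.2 (SD, n = 4) in NTG and 83.9 ± 7.64 (SD, n = 3) in mNrf2-TG hearts, 49.7% of the NTG level, for a Log2FC of -1.0 with a standard error (SE) of 0.11. Of the 9666 genes with at least 50 normalized counts, 1.20% had a lower Log2FC. The gene lies at chr6:88193891-88207032 on the plus strand of GRCm38, and none of the 50-base stretches of its transcripts occurs in a transcript of another gene, so reads of this length are not shared with a related GATA gene. Its raw counts were 157, 179, 169 and 160 for NTG and 71, 85 and 101 for mNrf2-TG.

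**Figure D1:**
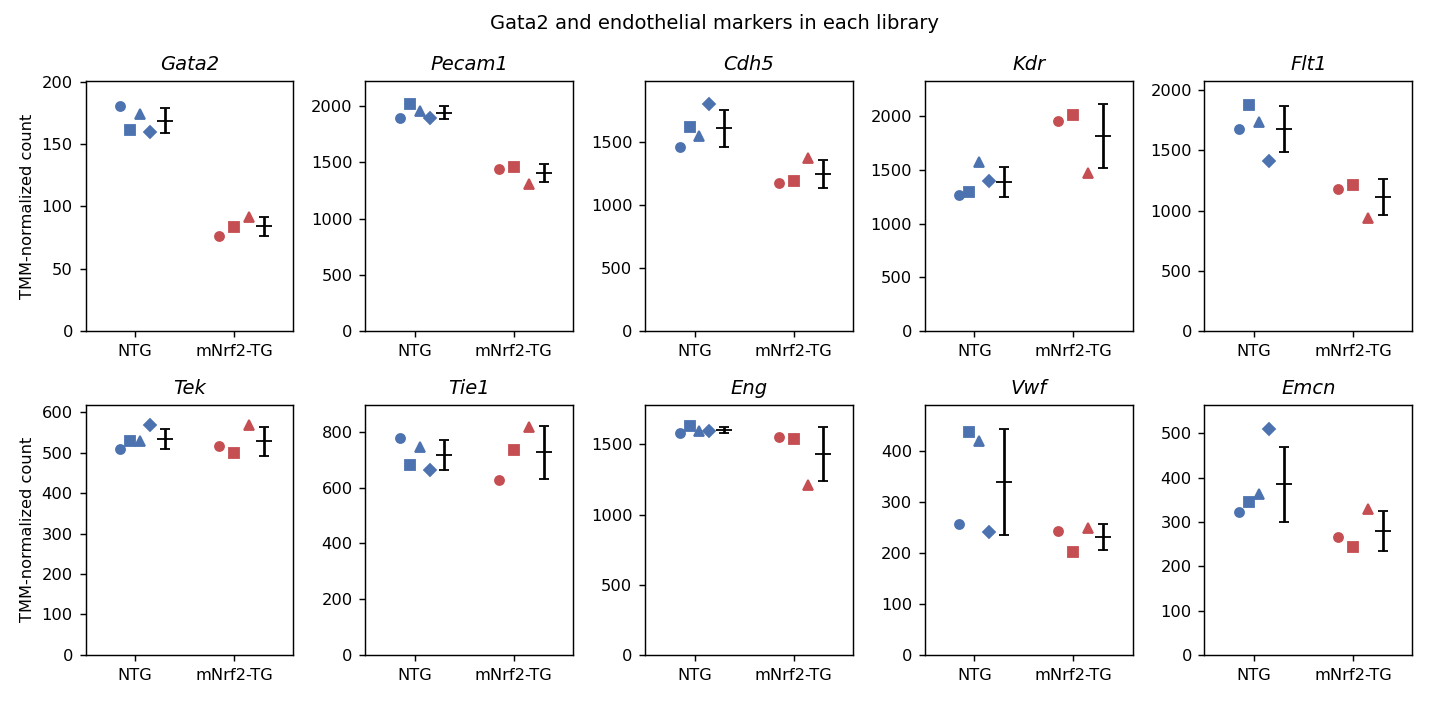
TMM-normalized counts (vertical axes, starting at 0) of Gata2 and the 9 endothelial markers in each library, with NTG libraries in blue (circle, square, triangle and diamond for 1 to 4) and mNrf2-TG libraries in red (circle, square and triangle for 17 to 19). Black bars give the mean ± SD. Gata2, Pecam1, Cdh5, Flt1 and Eng have no overlap between the groups, all with the mNrf2-TG libraries below, while Tek and Tie1 overlap over most of their range.

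The junction markers were lower in mNrf2-TG hearts, by less than Gata2. Pecam1 (chr11:106654217-106750628, minus strand), which encodes the adhesion molecule at contacts between endothelial cells, had 1897, 2023, 1956 and 1896 normalized counts in NTG libraries and 1446, 1459 and 1309.8 in mNrf2-TG libraries. The groups did not overlap, and the Log2FC was -0.47 (SE 0.07), a mean of 72.3% of the NTG level. Cdh5 (chr8:104101625-104144511, plus strand), the cadherin of the adherens junction, had 1461, 1617, 1542 and 1799 normalized counts in NTG and 1172, 1185 and 1372 in mNrf2-TG libraries. These did not overlap either, with NTG library 1 closest to mNrf2-TG library 19, and the Log2FC was -0.37 (SE 0.09), or 77.4% of the NTG mean.

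The 2 VEGF receptors differed in direction. Flt1 (chr5:147561604-147726011, minus strand), the receptor that binds VEGF-A tightly and signals weakly, had 1678, 1874, 1733 and 1415 normalized counts in NTG and 1181, 1215 and 941 in mNrf2-TG libraries. Every mNrf2-TG library was below every NTG library, and the Log2FC was -0.59 (SE 0.12). Kdr (chr5:75932827-75978458, minus strand), the main signalling receptor for VEGF-A, had 1269, 1299.5, 1579 and 1402 normalized counts in NTG and 1957, 2014 and 1474 in mNrf2-TG libraries. Here mNrf2-TG libraries 17 and 18 were above all NTG libraries, while library 19 was below NTG library 3. The Log2FC of Kdr was 0.39 (SE 0.12), from 1387 ± 139.7 (SD, n = 4) to 1815 ± 297 (SD, n = 3). The ratio of Kdr to Flt1 within a library, in which the library scale cancels, was 0.756, 0.694, 0.911 and 0.991 in NTG and 1.66, 1.66 and 1.57 in mNrf2-TG hearts. Its groups were separate and its geometric mean was 1.96 times as high in mNrf2-TG hearts.

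The angiopoietin receptors had nearly equal means in both genotypes. Tek (chr4:94739289-94874976, plus strand) had 510.3, 530.1, 529 and 569 normalized counts in NTG and 516, 499 and 569 in mNrf2-TG libraries, a Log2FC of -0.02 (SE 0.08). Tie1 (chr4:118471191-118490061, minus strand) had 777, 679, 744 and 664 in NTG and 627, 733 and 817 in mNrf2-TG libraries, a Log2FC of 0.02 (SE 0.10). For both genes the 2 groups overlapped over most of their range, and the sign of these small values changed when single libraries were left out.

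Eng, Vwf and Emcn had lower means in mNrf2-TG hearts with more spread. Eng (chr2:32646595-32682669, plus strand) had 1580.3, 1629, 1597 and 1597 normalized counts in NTG and 1554, 1535 and 1208 in mNrf2-TG libraries. The groups did not overlap, but libraries 17 and 18 lay just under the NTG range and library 19 lay far below it, and the Log2FC was -0.16 (SE 0.09). Eng shares 61 exon bases with Fpgs on the other strand, and whether strand was used in counting is not given in the sources used here. Vwf (chr6:125546774-125686679, plus strand) had 257, 436, 419 and 241 normalized counts in NTG and 242, 201 and 248 in mNrf2-TG libraries. NTG libraries 1 and 4 sat at the mNrf2-TG level and NTG libraries 2 and 3 far above it, so that the Log2FC of -0.56 (SE 0.21) came with an SD of 103 around an NTG mean of 338. Emcn (chr3:137341067-137432185, plus strand) had 323, 345, 362 and 509 normalized counts in NTG and 267, 242 and 329 in mNrf2-TG libraries, a Log2FC of -0.46 (SE 0.17). Library 19 was above NTG library 1, and NTG library 4 was the highest of all.

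Of the 10 genes, Gata2, Pecam1, Cdh5 and Flt1 were among the genes called lower (8.73% of all genes tested), Kdr was among those called higher (8.48%), and 5 were not called. For 5 of the 10 the normalized counts of the genotypes did not overlap, as for 29.7% of all genes. Since the genes were chosen with this comparison known, nothing is read from these counts. Gata2, Pecam1 and Flt1 were called under all 13 alternative settings. Kdr was not called when NTG library 1, 2 or 4 or mNrf2-TG library 17 or 18 was left out, with a Log2FC of 0.31 to 0.40 there, and Cdh5 was not called without NTG library 2 or mNrf2-TG library 17 or 18, with -0.36 to -0.33. Vwf was called without NTG library 4 alone, at -0.69. The 9 markers had a median Log2FC of -0.37, against 0.00 for all genes tested and -0.03 for the 9666 genes with at least 50 normalized counts. In whole heart, fewer cells of a type and less RNA per cell cannot be told apart.

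**Figure D2:**
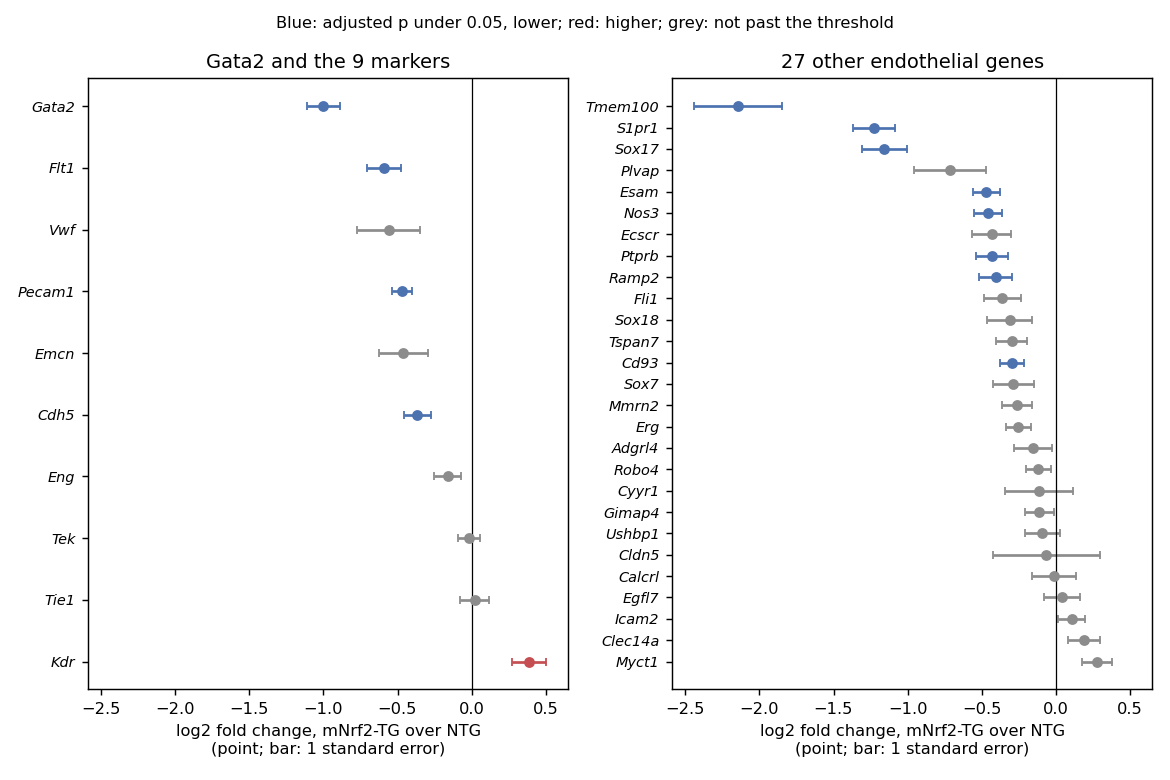
Log2FC of mNrf2-TG over NTG (points) with 1 SE (bars) for Gata2 and the 9 markers (left) and for 27 further endothelial genes (right), ordered from the lowest. Blue and red mark genes called lower and higher at an adjusted p of 0.05, grey those not called. Gata2 lies at -1.0, below all 9 markers, and 3 of the 27 further genes lie below it.

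The level of Gata2 was next set against the markers within each library. The geometric mean of the 9 markers was 878, 962, 974 and 927 normalized counts in NTG and 796, 788 and 786 in mNrf2-TG libraries. All mNrf2-TG hearts were below all NTG hearts, at 84.5% of the NTG level on the geometric mean, a log2 difference of -0.24. Gata2 divided by this mean was 0.206, 0.168, 0.179 and 0.172 in NTG and 0.0966, 0.107 and 0.117 in mNrf2-TG libraries. The groups were again separate, with mNrf2-TG at 58.9% of NTG and a log2 difference of -0.76, so the markers as a set were lower by less than Gata2. Without NTG library 3 the log2 difference was -0.77, and on the authors' rlog values, which shrink differences of low counts, it was -0.33. How much of the smaller value came from that shrinkage was not tested. Without Kdr among the markers their mean stood at 80.1% of NTG.

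The distance between Gata2 and a marker depended on the marker. Against Tie1, with its nearly equal means, Gata2 stood at 0.233, 0.238, 0.235 and 0.240 in the NTG libraries and at 0.122, 0.115 and 0.113 in the mNrf2-TG libraries, the tightest of these ratios in NTG hearts. Against Tek the log2 difference was -0.99 and against Eng -0.84, also without overlap. Against the junction genes it was -0.54 for Pecam1 and -0.64 for Cdh5, again without overlap. Against Flt1, Vwf and Emcn it was -0.41, -0.50 and -0.56, and in these 3 ratios the groups overlapped. The difference against Kdr, the marker with the higher mean in mNrf2-TG hearts, was -1.38, without overlap.

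**Figure D3:**
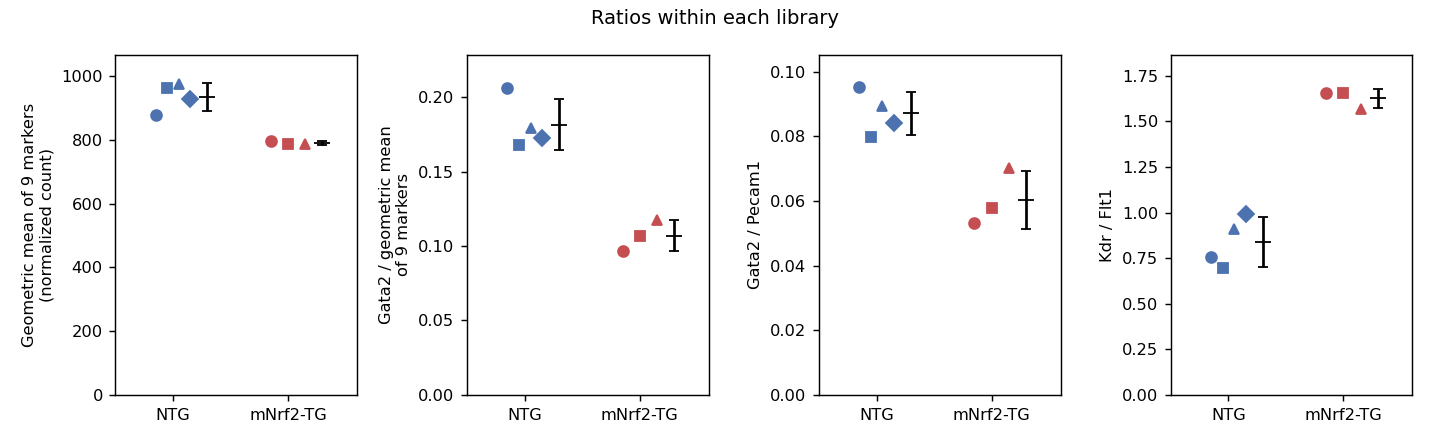
Geometric mean of the 9 markers in normalized counts, and the ratios of Gata2 to that mean, of Gata2 to Pecam1 and of Kdr to Flt1, in each library (vertical axes start at 0; colours and symbols mark libraries, circle to diamond for NTG 1 to 4 in blue and circle to triangle for mNrf2-TG 17 to 19 in red). Black bars give the arithmetic mean ± SD. In all 4 panels the 2 groups are separate: Gata2 per marker lies between 0.168 and 0.206 in NTG and between 0.0966 and 0.117 in mNrf2-TG hearts.

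The markers did not all deviate in the same direction within a genotype. In mNrf2-TG libraries 17 and 18 Pecam1, Kdr, Flt1 and Eng lay above their group means, and Cdh5, Tek and Emcn below them. Within the mNrf2-TG group, library 19 had the lowest Pecam1, Kdr, Flt1 and Eng and the highest Gata2, Cdh5, Tek, Tie1, Vwf and Emcn. Over the 7 deviations from the group means on the log2 scale, Pearson's r with Gata2 was 0.99 for Tie1, the highest of 9665 genes, and -0.73 for Eng, -0.65 for Pecam1 and -0.51 for Kdr. Pepd, Eral1, Poc1b and Dedd followed Tie1 in that order. Over the 7 libraries themselves, a measure that includes the difference between genotypes, the genes most like Gata2 were Srpr, Dedd, Mapk4, Sema6b and Errfi1, each with r of 0.99. Of these Mapk4 had a Log2FC of -2.52, Errfi1 of -1.57 and Sema6b of -1.10, while Srpr and Dedd had -0.24 and -0.34. On the same measure r was 0.93 for Pecam1, in rank 387, 0.85 for Cdh5, 0.84 for Flt1 and -0.80 for Kdr. All points of these correlations share the 7 libraries, and they are given as descriptions. The highest r was picked from 9665 genes over only 7 values, so its size alone is not read as a link between genes.

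Compared per length, as TPM, read counts divided by length and scaled to the same total in each library, over the annotated exon bases of each gene, the markers spanned a wide range in NTG hearts. Eng was highest at 177 ± 3.00 TPM and Cdh5 next at 171 ± 14.5 TPM, 2 levels that overlapped, followed by Pecam1 at 139.7 ± 5.01 TPM. Kdr, Tie1, Flt1 and Tek followed at 68.7, 65.2, 55.6 and 50.8 TPM, each overlapping the next. Emcn stood at 31.8 TPM, Gata2 at 14 ± 0.889 TPM and Vwf at 9.44 TPM, without overlap between neighbours (all SD, n = 4). In mNrf2-TG hearts Eng (159 TPM), Cdh5 (133 TPM) and Pecam1 (102 TPM) kept the first places, but Kdr at 90.6 TPM now overlapped Pecam1, Flt1 at 37.1 TPM came after Tek at 50.5 TPM, and Gata2 at 7.01 ± 0.699 TPM (SD, n = 3) overlapped Vwf at 6.46 TPM. Exon bases of all annotated transcripts were joined for each gene, so a gene expressed as a short isoform is given too low a level.

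A list of 27 further genes of general endothelial expression, none of them among the 10, was examined in the same 7 libraries. It too was drawn up with earlier results of these data known, so its counts are a description and not independent evidence. Of these 8 were called lower and none higher, 29.6% against the 8.73% of all genes, and 23 of 27 had a Log2FC below 0. All genes include many of few reads, which are called less often. Of the 9666 genes with at least 50 normalized counts, 1176 were called lower and 993 higher. The median Log2FC was -0.29, and the geometric mean of the list stood at 79.0% of NTG without overlap, against 84.5% for the 9 markers and 80.1% for the markers without Kdr. The values of 11 of the 27 did not overlap between genotypes, all lower, where 14.7% of all genes did so in that direction and 15.0% in the other.

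Tmem100, a target of BMP9 and ALK1 signalling in endothelium, fell most. Its libraries held 416, 479.7, 200.04 and 502 normalized counts in NTG and 109, 75.9 and 87.1 in mNrf2-TG hearts, with NTG library 3 lowest of its group (Log2FC -2.15, SE 0.30, adjusted p = 0.00162 in the quasi-likelihood test). S1pr1, the receptor for sphingosine 1-phosphate that steadies endothelial junctions, fell from 1635 ± 211 (SD, n = 4) to 699 ± 139.6 (SD, n = 3) normalized counts, with a Log2FC of -1.23. Sox17, a transcription factor of arterial endothelium, held 122, 112, 133 and 103 normalized counts in NTG and 46.3, 61.1 and 49.9 in mNrf2-TG libraries, a Log2FC of -1.16 (edgeR adjusted p = 0.00115). These 3 were the genes of the list with a Log2FC below that of Gata2. Esam, a junction molecule, fell by 0.47 on the log2 scale and Nos3, the endothelial nitric oxide synthase, fell by 0.46. Ptprb, the phosphatase that acts on TIE2, Ramp2 and Cd93 also passed with -0.43, -0.41 and -0.30, and these 3 calls were lost when mNrf2-TG library 17 was left out, and again without library 18. Over the 13 alternatives Ptprb kept its call in 11, Ramp2 in 9, not without NTG library 2 or mNrf2-TG library 19 either, and Cd93 in 6, called with NTG library 3 left out but with no other library left out. Without library 17 or 18 the list had 5 genes called lower. At an unadjusted p of 0.05 edgeR counted 14 lower and 1 higher, Myct1, and DESeq2 called 8 and 0. The share of all genes at that unadjusted level was not counted, so nothing is read from the 14 and 1. Cldn5, the tight junction claudin, ranged from 53.6 to 182 normalized counts within NTG and was not called (-0.07).

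Among 23 transcription factors of endothelium 4 fell and none rose in edgeR, as in DESeq2, and the median Log2FC was -0.25. This list and those that follow stand beside 8.73% of all genes called lower and 8.48% called higher. Their counts at an unadjusted p of 0.05 have no such share beside them, and nothing is read from them. At an unadjusted p of 0.05 there were 7 lower and 2 higher. Beside Sox17 these were Klf2 and Klf4, the shear-responsive Krüppel-like factors, with -1.0 (edgeR adjusted p = 0.0109) and -0.90 (0.00449), and Hey1, a Notch target, with -0.68 (0.0214). Hey1 was not called without NTG library 1 or mNrf2-TG library 17 or 18. The ETS factors Erg and Fli1, general regulators of endothelial genes, had -0.25 and -0.36 and did not pass. Sox17, Erg and Fli1 are also in the list of general endothelial genes.

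Of the GATA factors, Gata2 was accompanied by Gata6, a factor of cardiomyocytes and other mesodermal cells, which fell from 563 ± 74.3 (SD, n = 4) to 429 ± 25.2 (SD, n = 3) normalized counts (Log2FC -0.39, edgeR adjusted p = 0.0317). This call was lost without NTG library 4 or any single mNrf2-TG library. Gata4, the main GATA factor of cardiomyocytes, had 831, 734, 765 and 1052 normalized counts in NTG and 1015, 1044 and 1070.2 in mNrf2-TG libraries, a Log2FC of 0.30 that did not pass (adjusted p = 0.101 by edgeR, and 0.00946 without NTG library 4). Gata3 was near 0, with 1 or 2 reads per NTG library and at most 6 per mNrf2-TG library. Gata1 and Gata5 were not analysed here. None of the partners Zfpm1, Zfpm2, Tal1, Lyl1, Lmo2, Ldb1 and Runx1 was called by edgeR or DESeq2, although Zfpm1 and Zfpm2 had an unadjusted p under 0.05, with Log2FC from -0.42 for Tal1 to 0.56 for Lyl1.

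Genes around the receptors of the set moved in part, beside 8.73% of all genes called lower. Of 13 ligands and partners of the VEGF and angiopoietin receptors 3 fell and none rose in edgeR and in DESeq2, with a median Log2FC of -0.04 and with 5 lower and 1 higher at an unadjusted p of 0.05. Without mNrf2-TG library 17 none of them was called, and the median ranged from -0.24, without library 18, to -0.02, without NTG library 1. Angpt1, the activating ligand of TIE2, had 452, 581, 427 and 597 normalized counts in NTG and 178, 179 and 350.4 in mNrf2-TG libraries, a Log2FC of -1.12 (edgeR adjusted p = 0.0111, and 0.0502 without library 17). Vegfa, the ligand of both VEGF receptors, had a Log2FC of -0.35 and an edgeR adjusted p of 0.0490, its groups overlapped, and the call was lost in 8 of the 13 alternatives, among them those without any 1 library other than NTG 2. The third was Ptprb, which is also in the list of general endothelial genes.

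Of 19 genes of endoglin and ALK1 signalling 4 fell and none rose in edgeR, with a median Log2FC of -0.23 and with 7 lower and 2 higher at an unadjusted p of 0.05. DESeq2 called the same number lower and also Tgfb2 higher, which edgeR called without NTG library 3 or mNrf2-TG library 19, at 0.77 and 0.95. The median was -0.15 without NTG library 3. Over all genes the share called lower was 8.73%. Acvrl1, which encodes ALK1, the receptor that endoglin assists, fell from 421 ± 20.2 (SD, n = 4) to 307 ± 28.0 (SD, n = 3) normalized counts (Log2FC -0.45, edgeR adjusted p = 0.00780). The BMP target genes Smad6 and Id1 fell by 0.66 and 0.61 on the log2 scale, and the ligand Tgfb1 fell by 0.55, a call lost without mNrf2-TG library 18. Eng itself had -0.16.

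The lists for vessel types differed in their counts, where 8.73% of all genes were called lower and 8.48% higher. Of 14 genes of heart capillary endothelium 6 fell and none rose in edgeR and in DESeq2, and the median was -0.37, or -0.62 without mNrf2-TG library 19. All 6 calls held under all 13 alternatives, and at an unadjusted p of 0.05 there were 7 lower and 0 higher. Rgcc, Kcna5 and Sgk1 had Log2FC of -1.32, -1.24 and -1.04. Car4, the membrane carbonic anhydrase, had -0.84, Aqp1, the water channel, -0.69, and Gpihbp1, the protein that carries lipoprotein lipase to the capillary lumen, -0.68. Kcna5 and Sgk1 are also known from heart muscle. Cd36 and Fabp4, the capillary fatty acid transport genes, which cardiomyocytes or adipocytes also express, had 0.06 and -0.26 and were not called.

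Of 14 arterial genes Sox17 and Hey1 fell in edgeR and none rose (median -0.07, or -0.04 without NTG library 3 and -0.11 without mNrf2-TG library 19; 3 lower and 0 higher at an unadjusted p of 0.05, as by DESeq2, the third being Mgp). Sox17 and Hey1 were already counted among the transcription factors. Of 10 venous genes Aplnr, the apelin receptor, rose from 199.98, 189, 177 and 136 normalized counts in NTG to 385, 263 and 459 in mNrf2-TG libraries (Log2FC 1.07, edgeR adjusted p = 0.00491), while Lrg1 fell (-0.73, 0.00830). The venous median of -0.28 ranged from -0.52 without mNrf2-TG library 17 to -0.17 without library 19. The 9 endocardial genes (median -0.16) and the 8 lymphatic genes (median -0.01) had no call by edgeR or DESeq2 and 1 gene each, Plvap and Flt4, at an unadjusted p of 0.05. Plvap was called without NTG library 1 and Flt4 without mNrf2-TG library 18. The endocardial median was -0.05 without mNrf2-TG library 18, and the lymphatic median turned sign with the libraries left out, from -0.19 without mNrf2-TG library 17 to 0.12 without NTG library 3. Counted once each, the 79 genes of the general, capillary, arterial, venous, endocardial and lymphatic lists held 16 called lower, 20.3% against the 8.73% of all genes, and 1 called higher, 1.27% against 8.48%, with a median Log2FC of -0.18, and 7 had a Log2FC below that of Gata2. Among the 7 was Selp (-1.83), which had 1 to 11 reads per library and was not called. The shares over all genes are lower than those among the 9666 genes with at least 50 normalized counts, where 1176 were called lower and 993 higher. The tests of these lists share the 7 libraries with the markers, and the differences between lists were not tested.

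**Figure D4:**
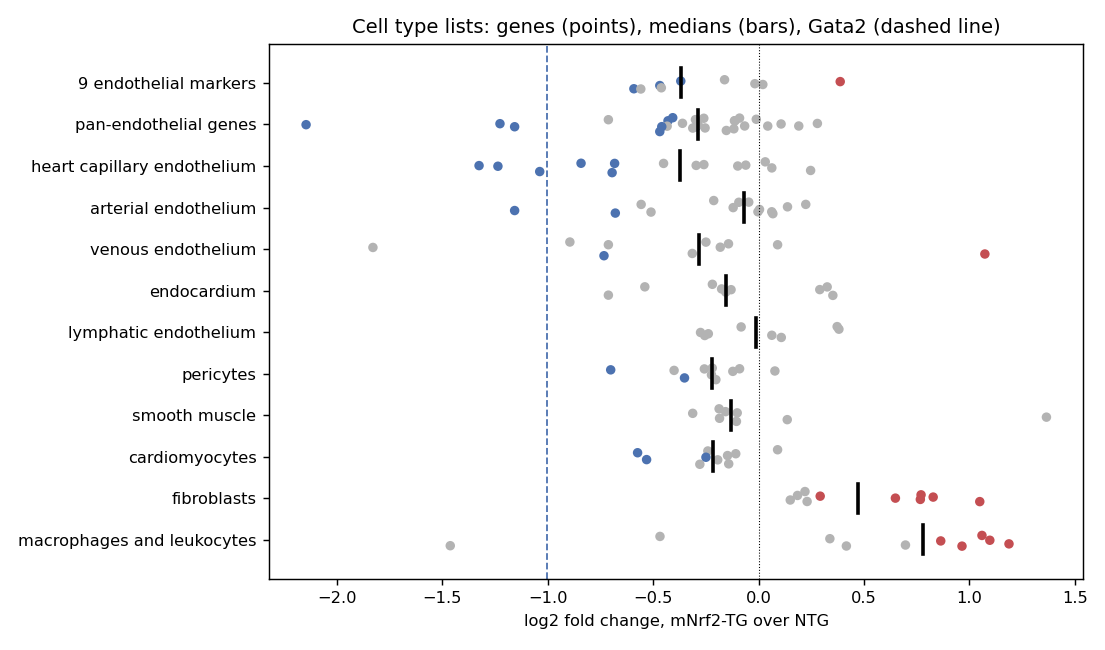
Log2FC of mNrf2-TG over NTG for each gene (points) of 12 lists, with the list median (black bar) and the value of Gata2 (dashed line, -1.0). Blue and red points were called lower and higher at an adjusted p of 0.05, grey points were not called. Medians of the endothelial lists lie between -0.37 and -0.01. Those of pericytes, cardiomyocytes and smooth muscle lie in the same range, at -0.22, -0.22 and -0.13. Those of fibroblasts and macrophages lie at 0.47 and 0.78.

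Other cells of the heart were read with lists of their own. Their counts too stand beside 8.73% of all genes called lower and 8.48% called higher. Mast cells and blood progenitors also use GATA2. Of 10 mast cell genes 6 were in the table analysed, with summed levels of 83.6 to 117 normalized counts per NTG library and 78.1 to 84.7 per mNrf2-TG library. Kit had the highest level of the 6 in every library (Log2FC -0.20), and Hdc the next highest mean (0.30). The proteases Cpa3, Mcpt4, Cma1 and Tpsb2 had 1 to 12 reads in any library, fewer than the 71 to 179 reads of Gata2. The median Log2FC of the 6 was -0.59, the lowest of the lists, or 0.06 where filterByExpr removed the genes of few reads and -0.95 without mNrf2-TG library 17. Neither edgeR nor DESeq2 called any of the 6, Mcpt4 and Cma1 were lower at an unadjusted p of 0.05, and Mcpt4 was called without NTG library 3 or mNrf2-TG library 17. The other 4 genes, with Gata1 and Fcer1a among them, were not analysed here. Of 10 genes of blood progenitors and platelets 6 were in the table, and there was no call by either tool, 0 also at an unadjusted p of 0.05. Their summed levels of 1235 to 1463 in NTG and 1455 to 1630.2 in mNrf2-TG libraries were mostly Cd34 (1061 to 1300.3 and 1316 to 1428), which endothelium and fibroblasts also express. The median Log2FC was -0.12, from -0.32 without mNrf2-TG library 19 to 0.00 without library 18.

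Among 10 pericyte genes Steap4 and Rgs5 fell (-0.70 and -0.35), with a median of -0.22 (-0.35 without mNrf2-TG library 19) and summed levels of 7571 to 10220 and 7031 to 8446 normalized counts. The Rgs5 call was lost without NTG library 1 or mNrf2-TG library 17. The 8 smooth muscle genes had no call in edgeR or DESeq2 and 0 at an unadjusted p of 0.05, with a median of -0.13 (0.03 without mNrf2-TG library 19), but Acta2 was called higher without NTG library 3, at 2.53. The 4 red blood cell genes had no call in edgeR (median -0.24, or 0.04 without mNrf2-TG library 17), and Hbb-bs, lower at an unadjusted p of 0.05, was called by DESeq2 and by edgeR without NTG library 3. Of 10 cardiomyocyte genes Myl2, Tnni3 and Pln fell (-0.57, -0.53 and -0.25; Pln not without NTG library 1) and the median was -0.22. At an unadjusted p of 0.05 there were 6 lower and 0 higher, and DESeq2 called 4 lower. The values of 6 did not overlap, all lower, where 14.7% of all genes did so in that direction. Of 10 fibroblast genes 6 rose, Lum (1.05), Col1a2 (0.83), Col3a1 (0.77), Col1a1 (0.77), Tcf21 (0.65) and Dpt (0.29), or 2 without mNrf2-TG library 19, with a median of 0.47 and summed levels of 20058 to 22350 in NTG and 23932 to 27933 in mNrf2-TG libraries. Of 10 macrophage and leukocyte genes 5 rose, Adgre1 (1.19), C1qb (1.10), Csf1r (1.06), Ptprc (0.96) and C1qa (0.86), with a median of 0.78 (0.49 without mNrf2-TG library 18) and summed levels of 1094 to 1533 and 1855 to 2629. The part of these other cells in the levels of Gata2 and the markers was not tested.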

How the data were processed

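RNA of whole hearts was sequenced as single reads of 50 bases, 1 library per mouse. The authors aligned them with Novoalign 2.08.01 (submitters' processing notes) and deposited read counts per gene without normalization, log2 values made with the rlog of DESeq2 1.32.0, and a signal column of mean counts divided by size factors. The methods name both hg19 and mm10; the counting program is not given in the sources used here. The deposited comparison also holds the authors' fold changes and p-values, which were not used. Of 14665 entries 24 repeats were dropped. The 7 libraries were grouped by genotype label. Counts were tested in edgeR 4.0.16 (R 4.3.3; TMM, quasi-likelihood test, genes with a summed count above 1, no covariates), with Benjamini-Hochberg adjustment over all 14637 genes. The SE was taken as the size of the Log2FC over the root of its F statistic. The test was checked on simulated data. Ratios and correlations used log2 of normalized counts plus 0.5. Positions and exon lengths came from GENCODE M21 (GRCm38).

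The 10 genes and all lists were chosen with earlier results of these data known. Named are the 10 genes, Nfe2l2, the genes of each list past the threshold (where more than 6 were, the 3 largest in each direction), the GATA factors, and the 5 genes most like Gata2 on each measure. Others (Esam, Nos3, Ramp2, Cd93, Cldn5, Erg, Fli1, Cd36, Fabp4, Plvap, Flt4, Cd34, Kit, Myct1, Tgfb2, Mgp, Acta2, Hbb-bs, Selp, Sele, Ackr1, the GATA partners and the mast cell genes) were added after their values were seen. Alternatives were DESeq2 size factors, the library total alone, the Wald test of DESeq2 1.42.0, filterByExpr, at least 10 counts in every library of a group, no filter, other references and a pseudocount of 5 for the ratio, and leaving out each library. Library totals of 6534684 to 8405857 limit precision for genes of few reads. The p-values weigh the difference between genotypes against the spread between these libraries.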

Additional observations from a re-analysis of the deposited data

Results flagged for a closer look

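Of 30 measures examined in the 4 NTG libraries, 1 had a library far from the others, where chance alone marks about 1 in 20. The mean log2 normalized count of the 10 venous genes was 5.80 in NTG library 4 and 6.11 to 6.17 in the other NTG libraries, a gap of 0.832 of the whole range, just over the 95% limit of Dixon's test for 4 values. Selp, Sele and Ackr1 of this list have few reads. No measure of Gata2 or of the 9 markers was marked.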

How the results depend on the processing

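Gata2 was called lower under all 13 settings, with a Log2FC of -1.07 to -0.94. Leaving out each library in turn moved the count of genes called from 1373 to 2950, that of the 10 genes called higher from 0 to 1 and called lower from 3 to 5, the median of the 9 markers from -0.42 to -0.29, that of the 27 further endothelial genes from -0.31 to -0.22, and their calls from 5 to 8 lower and from 0 to 1 higher. The log2 difference of Gata2 against the 9 markers was -0.83 to -0.69 with libraries left out, -0.79 to -0.67 with other references, scales or pseudocounts, and -0.33 with the authors' rlog values, an alternative added after the data were seen that shrinks differences of low counts by its construction. Whether that shrinkage accounts for the smaller rlog value was not tested. The Log2FC of Tek turned to 0.013 with the library total alone and ranged from -0.071 to 0.023 with libraries left out, and that of Tie1 from -0.070 to 0.11. With the library total alone 2417 genes were called, 1383 of them higher. The median of the mast cell genes ranged from -0.95 to 0.06 over all settings. Library totals limit what can be seen of genes with few reads. The paper describes the NTG mice as litter mates. No litter is given in the sample labels used here, so no paired analysis was made.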
